A study of Mus musculus with 10 samples.

Results

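Expression of 9 genes of the Notch pathway was followed in alveolar epithelial cells of the distal mouse lung. They were matched by symbol among the 31053 genes listed for each library. They are the receptors Notch1, Notch2 and Notch3, the ligands Jag1, Jag2 and Dll1, and the targets Hes1, Hey1 and Nrarp. The series holds 10 single-cell libraries in 6 groups, made from EpCAM+ cells sorted as RFP+ or YFP+ from 8-week-old mice after 3 doses of 0.2 mg/gbw tamoxifen. In Sftpc-CreERT2;R26R-Confetti mice both colours are wildtype, and each colour gave 1 library (Confetti RFP and Confetti YFP). The lungs of Sftpc-CreERT2;Red2Kras mice hold mutant cells, marked by RFP, beside wildtype YFP+ neighbours, with 2 libraries per colour at 4 days and 2 at 2 weeks. All groups share the Sftpc-CreERT2 driver, which is active in alveolar type 2 (AT2) cells, so lineages that lack Sftpc are outside the model. Lungs were pooled in each sample, and the study's methods, not the labels, place the Confetti libraries at 2 weeks.

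Notch receptors are single-pass membrane proteins that bind ligands of the Jagged and Delta-like families on neighbouring cells. Binding leads to cleavage of the receptor by an ADAM protease and then by gamma-secretase, and the freed intracellular domain enters the nucleus and joins RBPJ and a Mastermind-like coactivator to switch on targets such as Hes1, Hey1 and Nrarp. Nrarp is itself a negative regulator of the pathway. In the lung, Notch signalling is best known for the choice between secretory and ciliated fates in the airway and for roles in the turnover of alveolar cells after injury.

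The quality filters kept 32698 of 42012 barcodes, and 29572 of these cells were alveolar, with a range of 1008 to 4223 cells and 7336824 to 71490400 UMIs (unique transcript counts) per library. All 7 genes of a list of AT2 markers were detected in each library, with a summed level of 86010 to 238206 CPM (UMIs relative to each library's total, on the usual CPM scale and with edgeR's TMM factors, the level used throughout unless stated). Sftpc gave most of each sum. The lowest sums were in 2 weeks RFP (96224.5 and 86010 CPM) and replicate 2 of 4 days RFP (91059 CPM), and the other libraries had 137209 CPM or more. The 2 weeks RFP libraries were the deepest, with a mean of 17648 and 14248 UMIs per cell against a range of 3492 to 7279 in the others. Markers of airway secretory cells (6 genes, of which Scgb1a1 gave most) summed to 1903 and 1926 CPM in the Confetti libraries and to 160 and 81.6 CPM in the 2 weeks RFP libraries. No 2 libraries shared more than 17 cell barcodes. No label says what a replicate number stands for, so p-values measure only the spread between these samples. The study's methods name mice of both sexes, but most libraries held RNA of 1 sex. Both Confetti libraries had 0 UMIs of the Y-linked gene Ddx3y beside 11643 and 9795 of Xist, which females express. The replicate 2 libraries of Red2Kras lungs had 194 to 1328 UMIs of Ddx3y and 2 to 10 of Xist, and the replicate 1 libraries held both genes. Libraries were prepared on more than 1 day and the labels give no day, so that batch and group cannot be told apart.

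The genes lie in GENCODE M21 (GRCm38) as follows, and all 9 are protein-coding. Notch1 is at chr2:26457903-26516663 (minus strand), Notch2 at chr3:98013527-98150361 (plus strand) and Notch3 at chr17:32120820-32166852 (minus strand). Jag1 is at chr2:137081456-137116644, Jag2 at chr12:112907819-112929776 and Dll1 at chr17:15367354-15376872, all on the minus strand. Hes1 is at chr16:30064384-30067796 (plus strand), Hey1 at chr3:8663359-8667256 (minus strand) and Nrarp at chr2:25180758-25183339 (plus strand). Nrarp, Dll1 and Notch3 each overlap a gene on the opposite strand (Gm38287, A930024N18Rik and Gm17276). Those partners were counted with 17, 16 and 0 UMIs against 1596 for Nrarp, 542 for Dll1 and 96 for Notch3. Notch1 overlaps 0610009E02Rik and Gm13568 on the opposite strand and Mir6996 on its own. On their own strand, Notch2 overlaps Gm42819 and Gm42820, and Jag2 overlaps Mir6941. No counts are given for these other partners. Whether counting used the strand is not stated in the sources used here.

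Notch2 fell and Nrarp rose in 2 weeks RFP cells against Confetti, where 5.42% of all genes were called, and in the main setting these were the only members past the test in any of 7 comparisons. Leaving out any 1 of 6 libraries, either Confetti library among them, ended both calls. The upstream windows of these genes are shown because they are the promoters of both genes that were called. Each line holds 250 bases before the RefSeq start site (GRCm38.p6), 5′ to 3′ along the gene, with capitals for the GC box GGGCGG on either strand. The Notch2 window is chr3:98013288-98013537 and the Nrarp window is chr2:25180508-25180757, both on the plus strand.
Notch2: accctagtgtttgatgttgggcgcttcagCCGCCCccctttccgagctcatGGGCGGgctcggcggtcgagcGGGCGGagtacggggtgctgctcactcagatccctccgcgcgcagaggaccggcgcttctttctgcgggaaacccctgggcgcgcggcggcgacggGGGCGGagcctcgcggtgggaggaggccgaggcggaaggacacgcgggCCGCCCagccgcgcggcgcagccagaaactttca
Nrarp: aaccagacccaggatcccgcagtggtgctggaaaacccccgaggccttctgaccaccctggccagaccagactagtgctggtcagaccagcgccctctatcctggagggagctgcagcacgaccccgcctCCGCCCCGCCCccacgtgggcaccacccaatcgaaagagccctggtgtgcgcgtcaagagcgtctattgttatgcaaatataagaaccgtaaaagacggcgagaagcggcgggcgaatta
The Notch2 window is 72.0% G or C and holds 5 GC boxes, and the Nrarp window is 61.2% G or C and holds 2, which overlap by 1 base. A GC box occurs in 32.7% of 32851 windows of this length. The RBPJ core TGGGAA, on either strand, occurs in 21.6% of windows and in none of the 8 windows found for 7 members (Notch1, Notch2, Notch3, Jag1, Jag2, Nrarp and 2 start sites of Dll1). That says only that these letters are not in this stretch. The N-box CACNAG, the element named for binding by Hes proteins, occurs in 36.7% of windows, once in that of Notch2 and in 2 places in that of Nrarp.

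Notch2, a receptor broadly expressed in epithelium, was the only receptor to pass the test. Its level was 85.6 CPM in Confetti RFP and 181 CPM in Confetti YFP. At 4 days it was 77.2 and 119 CPM in RFP and 80.4 and 93.4 CPM in YFP libraries. At 2 weeks it was 25.7 and 12.2 CPM in RFP and 60.2 and 61.9 CPM in YFP libraries. Both 2 weeks RFP libraries thus lay below the other 8 libraries, while colours overlapped at 4 days and both wildtype Confetti libraries differed from each other by more than the 2 weeks YFP libraries did.

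The log2 fold change of Notch2 in 2 weeks RFP against Confetti was -2.71 (SE 0.40, adjusted p = 0.0332 by the quasi-likelihood test of edgeR with Benjamini-Hochberg adjustment over 13776 genes). Against the 2 weeks YFP libraries it was -1.68 (SE 0.39, adjusted p = 0.193), and from 4 days to 2 weeks in RFP cells it was -2.37 (SE 0.40, adjusted p = 0.363), neither of which passed the threshold of 0.05. In YFP cells the corresponding values were -1.03 (SE 0.38, adjusted p = 0.765) for 2 weeks against Confetti and -0.51 (SE 0.38, adjusted p = 1) between time points. At 4 days RFP against YFP gave 0.17 (SE 0.38, adjusted p = 0.985), and the difference between the time points in this effect was -1.86 (SE 0.54, adjusted p = 1). Mouse line, mutant allele and sex cannot be told apart in the comparison with Confetti, where the wildtype libraries are female only and those of 2 weeks RFP are mixed (replicate 1) and male (replicate 2). This holds for Nrarp as well. A sum over cells cannot separate fewer expressing cells from less RNA per cell.

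The Notch2 level is a share of all UMIs, and depth moved with it. Per 100 cells, 37.3 and 70.2 Notch2 UMIs were counted in the Confetti RFP and YFP libraries and 49.0 and 18.0 in the 2 weeks RFP libraries, so the groups overlapped on that scale. With all UMIs, 29.1% of Confetti RFP cells (95% exact Clopper-Pearson interval 27.6 to 30.6%) and 46.3% of Confetti YFP cells (44.7 to 47.9%) had a Notch2 UMI, against 33.9% and 15.7% of 2 weeks RFP cells. With each cell thinned to 2000 UMIs these shares became 15.6% and 31.5% in Confetti and 5.31% and 3.29% in 2 weeks RFP, and the groups no longer overlapped. In the discarded immune cells 21.3% had a Notch2 UMI after thinning. The part of depth in the difference was not tested.

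**Figure D1:**
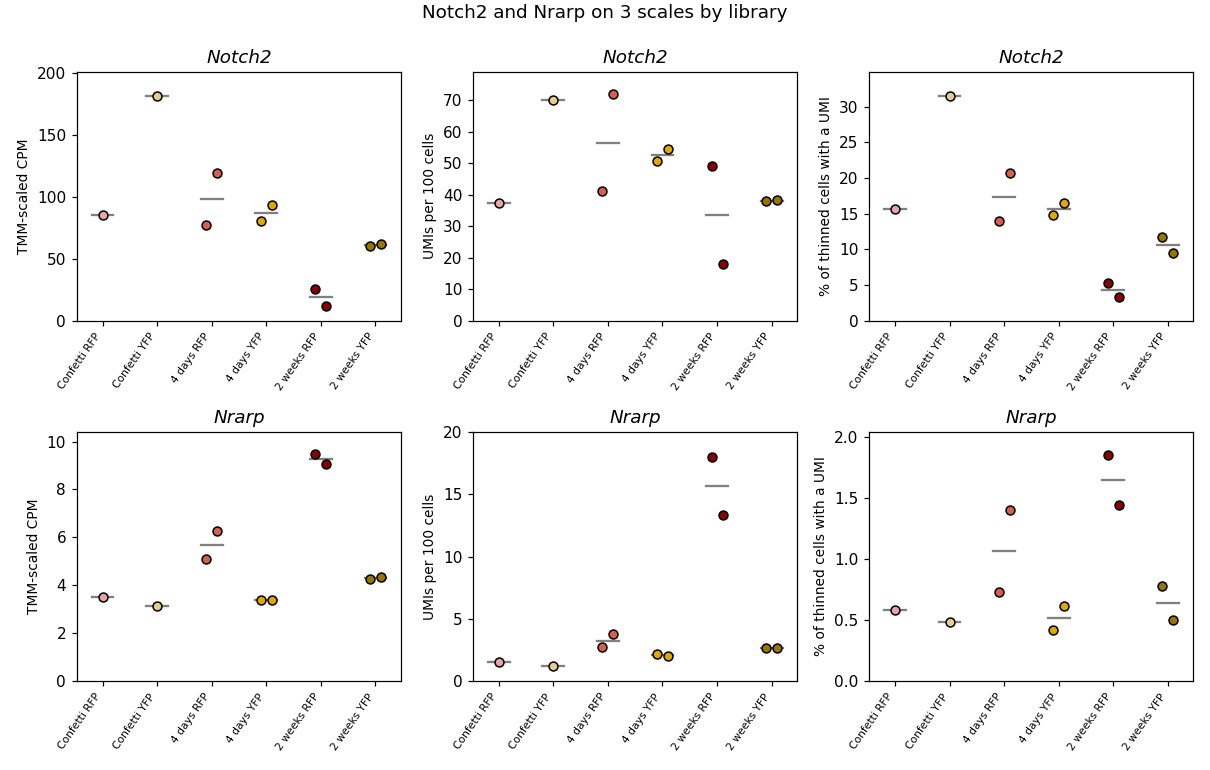
Notch2 (top) and Nrarp (bottom) in each library, as TMM-scaled CPM (left), UMIs per 100 alveolar cells (middle) and the percentage of cells with a UMI after thinning to 2000 UMIs (right). Points are libraries and grey bars group means. The 2 weeks RFP libraries are both lowest for Notch2 in CPM and in thinned cells, whereas in UMIs per 100 cells (49.0 and 18.0) they lie on both sides of Confetti RFP, and both are highest for Nrarp on each of these scales.

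Notch1, the receptor needed for T cell development, was lower on average in 2 weeks RFP cells without passing the test. It stood at 21.4 and 21.5 CPM in the Confetti libraries, at 17.4 and 13.9 CPM in 4 days RFP and at 18.4 and 18.6 CPM in 4 days YFP libraries. The 2 weeks levels were 15.3 and 10.9 CPM in RFP and 18.7 and 15.1 CPM in YFP. The lowest YFP library (15.1 CPM) lay under the highest RFP library of the same time (15.3 CPM), although within each replicate number RFP lay below YFP. For Notch1 the log2 fold change was -0.71 (SE 0.26, adjusted p = 0.117) in 2 weeks RFP against Confetti, -0.38 (SE 0.27, adjusted p = 0.491) against 2 weeks YFP, and -0.33 (SE 0.18, adjusted p = 0.319) for RFP against YFP over both time points.

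Notch3, a receptor typical of pericytes and smooth muscle, was counted with only 96 UMIs over all libraries. The libraries gave 7 UMIs in Confetti RFP, 5 in Confetti YFP, 5 and 1 at 4 days in RFP cells, 2 and 3 at 4 days in YFP cells, 46 and 23 in 2 weeks RFP and 3 and 1 in 2 weeks YFP. Scaled for depth, 2 weeks RFP held 0.597 and 0.563 CPM, Confetti 0.423 and 0.327 CPM and 2 weeks YFP 0.113 and 0.160 CPM. Its log2 fold change was 2.15 (SE 0.86, adjusted p = 0.281) against 2 weeks YFP, 0.64 (SE 0.72, adjusted p = 0.569) against Confetti and 1.24 (SE 0.64, adjusted p = 0.303) over both time points. In thinned cells, 0.222% and 0.217% of 2 weeks RFP cells had a Notch3 UMI, against 9.89% of the discarded mesenchymal cells. Markers of pericytes or smooth muscle (5 genes, of which Acta2 gave most in 2 weeks RFP) summed to 0.545 and 1.08 CPM in 2 weeks RFP, 0.121 and 0.523 CPM in Confetti and 0.189 and 0.481 CPM in 2 weeks YFP. Acta2 alone set that order, since the other 4 genes gave sums that overlapped between these groups. Mesenchymal markers (7 genes) summed to 0.545 and 2.03 CPM in the 2 weeks RFP libraries, to 0.423 and 1.31 CPM in Confetti and to 0.302 and 0.160 CPM in 2 weeks YFP. The part of such cells in the Notch3 values was not tested.

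Jag1, a Jagged ligand, was the most abundant of the ligands and varied between replicates. It was 104 CPM in Confetti RFP and 171 CPM in Confetti YFP. It was 112 and 75.6 CPM in 4 days RFP and 77.9 and 38.5 CPM in 4 days YFP libraries. It was 52.9 and 18.0 CPM in 2 weeks RFP and 77.4 and 28.2 CPM in 2 weeks YFP libraries. In each Red2Kras group, replicate 2 lay below replicate 1, and both colours overlapped at 2 weeks, when RFP lay below YFP within each replicate number. At 4 days RFP lay above YFP within each replicate number. Relative to Confetti, its log2 fold change was -1.91 (SE 0.64, adjusted p = 0.0953) for 2 weeks RFP and -1.32 (SE 0.64, adjusted p = 0.765) for 2 weeks YFP. It was -0.58 (SE 0.63, adjusted p = 0.654) between colours at 2 weeks, 0.69 (SE 0.63, adjusted p = 0.97) between colours at 4 days and 0.034 (SE 0.48, adjusted p = 0.975) over both time points. From 4 days to 2 weeks it was -1.41 (SE 0.64, adjusted p = 0.459) in RFP and -0.13 (SE 0.63, adjusted p = 1) in YFP cells. In the discarded ciliated cells 71.8% had a Jag1 UMI. Ciliated markers (6 genes) summed to 134 and 129 CPM in the Confetti libraries and to 32.1 and 27.3 CPM in 2 weeks RFP. Dynlrb2, Tppp3 and Sec14l3 gave nearly all of these sums. Foxj1, Tmem212 and Ccdc153 were each under 0.5 CPM in Confetti, and Tmem212 was at 1.10 CPM in replicate 1 of 2 weeks RFP. The part of ciliated RNA in the Jag1 values was not tested.

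Jag2, the other Jagged ligand, stayed within a narrow range of 2.21 to 3.99 CPM over the 10 libraries. The 2 weeks RFP libraries held 2.21 and 3.13 CPM and the 2 weeks YFP libraries, between them, 2.53 and 2.41 CPM. Between colours at 2 weeks the log2 fold change was 0.11 (SE 0.37, adjusted p = 0.905), and it was 0.069 (SE 0.24, adjusted p = 0.895) over both time points and -0.32 (SE 0.36, adjusted p = 0.565) in 2 weeks RFP against Confetti.

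Dll1, a Delta-like ligand, was low in wildtype cells and higher in most RFP libraries of Red2Kras lungs. The YFP libraries held 0.376 and 0.293 CPM at 4 days and 0.905 and 0.481 CPM at 2 weeks, and Confetti held 0.543 CPM in RFP and 1.51 CPM in YFP. At 4 days the RFP libraries differed widely, since replicate 1 held 0.809 CPM and replicate 2 held 9.40 CPM. At 2 weeks RFP held 3.92 and 1.84 CPM. Within each time point both RFP libraries lay above both YFP libraries, but replicate 1 of 4 days RFP was the only Red2Kras RFP library below a YFP library (0.905 CPM). The log2 fold change of RFP against YFP was 2.78 (SE 0.78, adjusted p = 0.103) over both time points, 3.90 (SE 1.14, adjusted p = 0.777) at 4 days and 1.95 (SE 1.01, adjusted p = 0.360) at 2 weeks.

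The other Dll1 comparisons were smaller against their error. They gave 1.67 (SE 0.98, adjusted p = 0.276) for 2 weeks RFP and -0.28 (SE 1.07, adjusted p = 0.95) for 2 weeks YFP against Confetti, and between time points -0.78 (SE 0.92, adjusted p = 0.744) in RFP and 1.17 (SE 1.18, adjusted p = 1) in YFP cells. The 4 days RFP value rests on replicate 2. Without replicate 1 of 4 days RFP the fold change at 4 days was 4.82, and without replicate 2 it was 1.29. Each of these fits had 1 library of 4 days RFP, so the spread came from other groups. Over the alternatives tried the adjusted p of the 4 days fold change ran from 7.09e-06 to 1. Of the discarded endothelial cells 31.2% had a Dll1 UMI. Endothelial markers (7 genes, of which Kdr was at 0 in 8 of 10 libraries) summed to 16.7 and 19.3 CPM in 4 days RFP and to 21.3 and 42.6 CPM in 4 days YFP libraries. Egfl7 gave most of these sums (17.9 of the 19.3 CPM in replicate 2 of RFP, and 41.9 of the 42.6 CPM in replicate 2 of YFP). In replicate 2 of 4 days RFP, the high library for Dll1, Cldn5 was at 0.580 CPM and Calcrl at 0.232 CPM, against 0.101 and 0.152 CPM in replicate 1, whereas Pecam1 was lower there (0.580 against 1.01 CPM), as were Ramp2 (0 against 0.354 CPM), Cdh5 (0 against 0.0506 CPM) and Kdr. The part of endothelial RNA in the Dll1 values was not tested.

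Nrarp was the only member tested over both time points for which every Red2Kras RFP library lay above every YFP library. Within a time point Nrarp and Dll1 both stood apart by colour, as did 31.9% of all genes at 4 days and 53.3% at 2 weeks. It was 3.50 and 3.14 CPM in the Confetti libraries. At 4 days it was 5.11 and 6.27 CPM in RFP and 3.38 and 3.40 CPM in YFP libraries. At 2 weeks it was 9.49 and 9.06 CPM in RFP and 4.26 and 4.33 CPM in YFP libraries. The 4 RFP libraries of Red2Kras lungs also lay above both Confetti libraries. The log2 fold change was 1.48 (SE 0.29, adjusted p = 0.0421) in 2 weeks RFP against Confetti. For RFP against YFP it was 0.91 (SE 0.19, adjusted p = 0.0823, and 0.0397 with the replicate number as a block) over both time points, 0.74 (SE 0.29, adjusted p = 0.835) at 4 days and 1.11 (SE 0.29, adjusted p = 0.197) at 2 weeks. It was 0.37 (SE 0.29, adjusted p = 0.770) in 2 weeks YFP against Confetti, 0.71 (SE 0.28, adjusted p = 0.433) between time points in RFP and 0.34 (SE 0.29, adjusted p = 1) between time points in YFP cells.

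Nrarp was also higher in 2 weeks RFP in cells thinned to an equal number of UMIs. Per 100 cells, 1.53 and 1.22 Nrarp UMIs were counted in Confetti and 18.0 and 13.4 in 2 weeks RFP, a scale that carries the greater depth of the 2 weeks RFP cells. After thinning, 0.579% and 0.482% of Confetti cells and 1.85% and 1.44% of 2 weeks RFP cells had a UMI. The share was 0.414% and 0.613% in 4 days YFP, 0.727% and 1.40% in 4 days RFP and 0.782% and 0.496% in 2 weeks YFP. Immune cells that had been discarded gave 0.412% (median of 7091 UMIs before thinning, 95% exact interval 0.198 to 0.757%). The intervals of the Confetti and YFP libraries and of replicate 1 of 4 days RFP overlapped that of the immune cells. Those of replicate 2 of 4 days RFP and of both 2 weeks RFP libraries lay above it. These intervals cover counting error within a library only, and the immune cells were pooled over libraries.

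Hes1, a repressor and the target with the most UMIs, did not separate the colours. It was 127 and 172 CPM in Confetti, 147 and 178 CPM in 4 days RFP and 132 and 148 CPM in 4 days YFP libraries. By 2 weeks it was 115 and 109 CPM in RFP and 103 and 116 CPM in YFP libraries. The colours overlapped at both time points, while all 4 Red2Kras libraries of 2 weeks lay below the other 6. Those other 6 include both Confetti libraries, which the study's methods also place at 2 weeks. The log2 fold change was 0.027 (SE 0.25, adjusted p = 0.97) between colours at 2 weeks, 0.099 (SE 0.16, adjusted p = 0.762) over both time points and -0.40 (SE 0.25, adjusted p = 0.299) in 2 weeks RFP against Confetti. Hey1, a related repressor, was counted with only 43 UMIs in all and with 0 in replicate 2 of 4 days RFP and of 4 days YFP, which allows up to 0.210% and 0.102% of cells with a UMI. It was not tested in the comparison over both time points because it did not pass the filter on low counts there, and its levels ran from 0 to 0.604 CPM. In the discarded endothelial cells 38.3% had a Hey1 UMI.

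**Figure D2:**
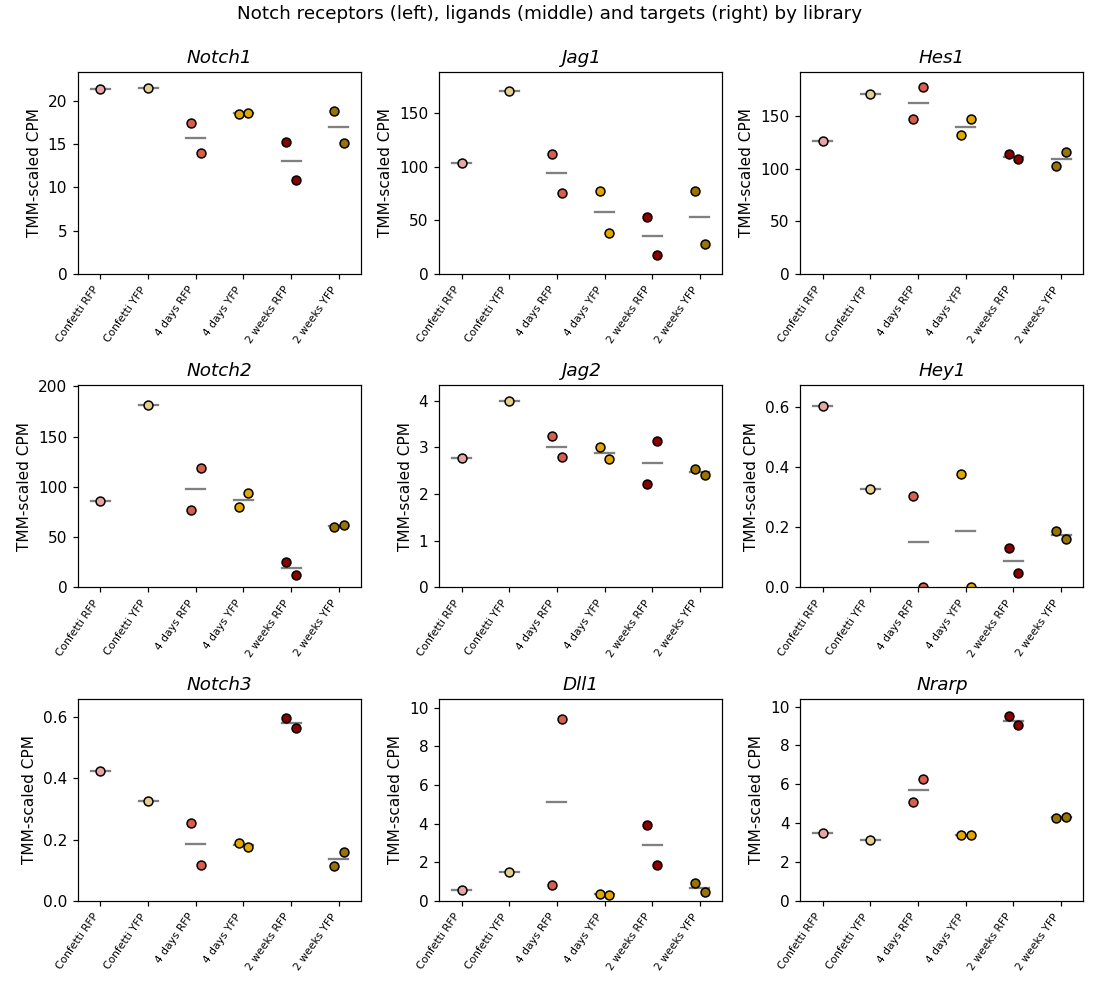
Level of each of the 9 genes in each library (TMM-scaled CPM, linear axes from 0), receptors in the left column, ligands in the middle and targets on the right. Points are libraries and grey bars group means. Notch2 is lowest (25.7 and 12.2 CPM) and Nrarp highest (9.49 and 9.06 CPM) in 2 weeks RFP, while Dll1 is set by replicate 2 at 4 days RFP (9.40 CPM).

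The comparison of mutant with Confetti cells at 2 weeks asks how far mutant cells had moved from undisturbed AT2 cells. Of 9 members tested, 2 were called (Nrarp higher and Notch2 lower), against 5.42% of the 13776 genes tested. At an unadjusted p under 0.05 there were 4 members, against 31.1% of all genes, and DESeq2 called 3, against 16% of all genes. The median log2 fold change was -0.40 over members and 0.03 over all genes. The 2 weeks RFP libraries did not overlap the Confetti libraries for 8 of 9 members (3 higher and 5 lower), but the same held for 73.7% of all genes, so that count is near the background. The calls depended on single libraries. Where the library left out was of 2 weeks RFP or Confetti, 1 library remained on that side, and the spread came from other groups. Notch2 was not called without Confetti RFP (adjusted p = 0.0891), Confetti YFP (0.171), replicate 1 or 2 of 4 days YFP (0.0522 and 0.0529), replicate 2 of 2 weeks RFP (0.156) or replicate 1 of 2 weeks YFP (0.0509), although its fold change stayed between -3.37 and -2.20. Nrarp was called only when the library left out was replicate 1 or 2 of 4 days RFP (0.0209 and 0.0212). In the other 8 cases its adjusted p ran from 0.0603 to 0.206 and its fold change from 1.38 to 1.56.

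**Figure D3:**
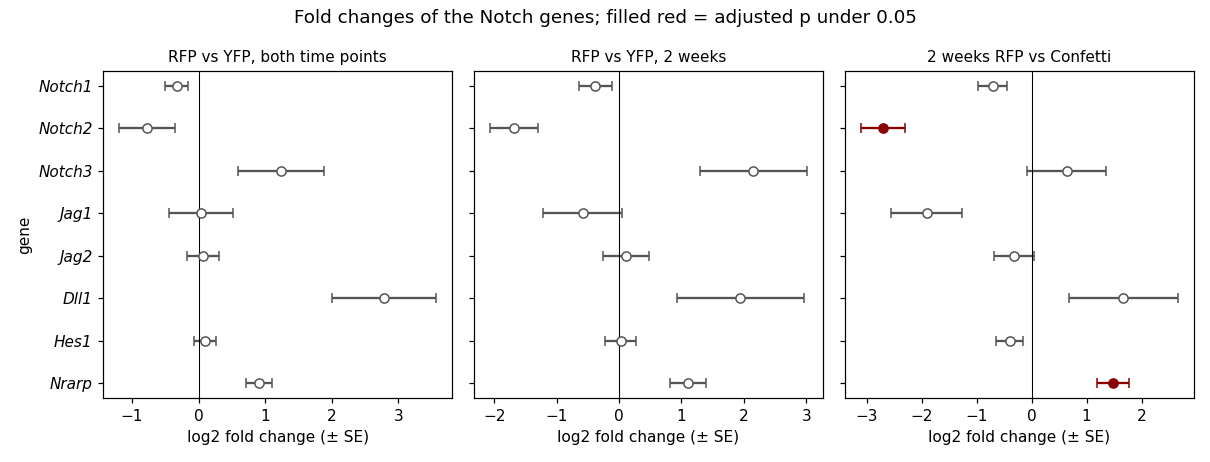
Log2 fold change of 8 members (Hey1 left out for its low counts) in 3 comparisons, with the standard error as bars. Filled red points passed an adjusted p of 0.05, which only Notch2 (-2.71) and Nrarp (1.48) did, in 2 weeks RFP against Confetti.

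No member was called between colours by edgeR in the main setting, and some members were called in other settings. Over both time points 0 of 8 members tested were called, against 0% of 13202 genes, with 2 members (Dll1 and Nrarp) at an unadjusted p under 0.05 (21.7% of all genes) and 2 called by DESeq2 (10.2%). With the replicate number as a block, 1 member was called (Nrarp, 0.91, adjusted p = 0.0397), against 7% of all genes. Nrarp alone of these 8 had RFP libraries that did not overlap the YFP libraries, against 9.17% of all genes. At 4 days 0 of 9 were called (0% of 13776 genes), with 2 at an unadjusted p under 0.05 (5.76% of genes) and 1 called by DESeq2 (0.829%). The libraries of both colours did not overlap at 4 days for 3 of 9 members, against 31.9% of all genes. At 2 weeks 0 of 9 were called (0.00726% of genes), with 3 at an unadjusted p under 0.05 (16.4% of genes) and 1 called by DESeq2 (3.84%). The libraries of both colours did not overlap at 2 weeks for 5 of 9 members, against 53.3% of all genes.

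The YFP cells of Red2Kras lungs ask whether wildtype neighbours differ from Confetti cells. At 2 weeks 0 of 9 members were called against Confetti (0.0218% of all genes), with 1 (Notch2) at an unadjusted p under 0.05 (5.63% of genes) and 0 called by DESeq2 (0.828%). The YFP libraries did not overlap Confetti for 8 of 9 members (1 higher and 7 lower), against 52.2% of all genes. Between 4 days and 2 weeks 0 members were called in RFP cells (0% of genes), with 2 (Notch2 and Nrarp) at an unadjusted p under 0.05 (11.1% of genes) and 1 by DESeq2 (1.03%). In YFP cells 0 were called (0% of genes), with 0 at an unadjusted p under 0.05 (1.66% of genes) and 0 by DESeq2 (0.153%). These comparisons share libraries with each other, as do those with Confetti.

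Of 43 other genes on a list of the pathway, 36 were tested. In 2 weeks RFP against Confetti 3 were called, 1 higher (Dlk1) and 2 lower (Mib2 and Hes2), near the 5.42% of all genes called there, and the median log2 fold change of the 36 was -0.34 against 0.03 over all genes. Dlk1, a Delta-like protein that lacks the DSL domain by which ligands bind Notch, was at 0 UMIs in both Confetti libraries and at 344 and 302 CPM in 2 weeks RFP. That is at least 3429-fold higher against a floor of 3 UMIs over both Confetti libraries. Dlk1 was also among the marker genes considered when clusters were named. Mib2, a ubiquitin ligase that acts on Notch ligands, was 9.24 and 10.7 CPM in Confetti and 3.27 and 3.58 CPM in 2 weeks RFP (log2 fold change -1.54, SE 0.27, adjusted p = 0.0385). Hes2, a repressor of the Hes family, was 4.65 and 4.65 CPM in Confetti and 0.351 and 0.147 CPM in 2 weeks RFP (-4.15, SE 0.89, adjusted p = 0.0443).

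In the other comparisons 0 of the 36 were called, and the counts at an unadjusted p under 0.05 were close to or below the share of all genes. The highest was 6 of 36 over both time points, where 21.7% of all genes passed, and the lowest was 1 of 36 in YFP cells between time points, where 1.66% did. Dlk1 had 291 and 301 UMIs in 4 days RFP against 0 and 1 in 4 days YFP libraries, and 63.2 and 4.98 CPM in replicates 2 and 1 of 2 weeks YFP, where Confetti had none. Cd177 and Cd38, listed with Dlk1 as markers, were also higher in replicate 2 of 2 weeks YFP (8.50 and 9.78 CPM) than in replicate 1 (0.377 and 2.75 CPM). Of the cells past the filters, 42.3% were discarded in that replicate 2 and 4.99% in replicate 1. The part of mutant cells or their RNA in these values was not tested. For RFP against YFP over both time points Dlk1 gave 4.53 (SE 1.03, adjusted p = 0.0852, and 0.0320 with a log2 fold change of 4.97 under the replicate block), at 2 weeks 3.27 (SE 0.98, adjusted p = 0.214) and between time points in RFP cells 3.71 (SE 1.00, adjusted p = 0.412). Rbpj, which encodes the DNA-binding partner of the receptor's intracellular domain, gave 0.59 (SE 0.18, adjusted p = 0.118) for RFP against YFP over both time points and 0.68 (SE 0.28, adjusted p = 0.842) at 4 days. Mib2 gave -1.09 (SE 0.27, adjusted p = 0.194) between colours at 2 weeks and -1.05 (SE 0.27, adjusted p = 0.412) between time points in RFP cells. Dtx4, of the Deltex family, gave -0.85 (SE 0.30, adjusted p = 0.765) in 2 weeks YFP against Confetti. Maml3, a Mastermind-like coactivator, gave -0.67 (adjusted p = 1) between time points in YFP cells.

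The alveolar cells fell into 11 clusters, of which 7 could be named from marker lists. Cluster 3 was AT2-like, clusters 1, 4, 7 and 10 primed AT2-like, cluster 5 resembled damage-associated transient progenitors (DATP-like, led by S100a6, Cldn4 and Sprr1a) and cluster 6 was cycling-like. Cluster 1 was led by Apoc1 and Slpi, and the heat shock genes Hspa1b and Dnajb1 were among the leading genes of clusters 4 and 7. Cluster 10 was led by Ccl20 and interferon-response genes such as Iigp1 and Gbp2, and its name is weak, since its primed AT2 score of 0.252 was close to its DATP score of 0.241. Cluster 0 (led by Pon1 and Cst8), cluster 2 (Nfkbia, Atf3 and Fosb, with no list scoring 0.25 or more), cluster 8 (Meg3, Kng2 and Cd38) and cluster 9 (Gzme and Spp1) stayed unnamed. The AT2 score of cluster 0 (0.467) was above that of cluster 3 (0.282), but the airway secretory marker Scgb1a1 was among its leading genes. Unnamed clusters held 66.7% of Confetti RFP and 78.7% of Confetti YFP cells. Clusters 8 and 9 came mostly from replicate 2 and replicate 1 of 2 weeks RFP. Single libraries also gave most of cluster 1 (60.1%, replicate 2 of 4 days YFP), cluster 4 (84.5%, replicate 1 of 2 weeks YFP) and cluster 7 (85.4%, replicate 1 of 2 weeks RFP). The members were among the genes clustered, so their levels by cluster are a description. They are given as CPM of the cluster's own UMIs in each library with at least 50 cells.

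Dll1 was uneven across clusters. The DATP-like cluster gave 36.4% of its UMIs but 12.5% of all UMIs, and its level there was 22.7 CPM in replicate 2 of 4 days RFP and 7.72 and 2.71 CPM in 2 weeks RFP. In the unnamed cluster 2 and the AT2-like cluster 3 no library passed 2.59 CPM. The unnamed cluster 9, nearly all from replicate 1 of 2 weeks RFP, gave 9.96% of Dll1 UMIs but 3.06% of all UMIs, with 7.67 CPM in that library. Dll1 also reached 6.15 CPM in cluster 10 (3 UMIs), 4.01 CPM in cluster 8 (5 UMIs) and 3.82 CPM in the cycling-like cluster. The cluster 8 value is of replicate 1 of 2 weeks RFP, and replicate 2, its main library, had 1.48 CPM. Cluster 8 gave 6.83% of Dll1 UMIs and 9.75% of all UMIs. The DATP-like cluster held 36.4% of cells in replicate 2 of 4 days RFP and 1.08% in replicate 1, which were the high and the low library for Dll1. With the cycling-like and DATP-like clusters left out, the 4 days fold change of Dll1 was 1.26 (adjusted p = 1), and that from 4 days to 2 weeks in RFP cells turned from -0.78 to 1.62.

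Nrarp was high in dividing cells of every group. In the cycling-like cluster it was 14.9 and 11.8 CPM in Confetti, 14.98 and 14.4 CPM in 4 days RFP, 9.85 CPM in replicate 2 of 4 days YFP, 11 CPM in replicate 1 of 2 weeks YFP and 13.1 and 16.8 CPM in 2 weeks RFP. Mutant and Confetti libraries thus overlapped within that cluster. In the DATP-like cluster it was 8.60 CPM in replicate 2 of 4 days RFP and 15.7 and 10.9 CPM in 2 weeks RFP, and in cluster 2 the range was 2.15 to 8.32 CPM. The highest level of Nrarp was in cluster 9, at 18.7 CPM in replicate 1 of 2 weeks RFP, and cluster 9 gave 8.27% of Nrarp UMIs. The cycling-like cluster held 20.5% and 4.94% of 2 weeks RFP cells and 2.74% and 2.84% of Confetti cells. With the cycling-like and DATP-like clusters left out, but cluster 9 kept, Nrarp in 2 weeks RFP against Confetti had a fold change of 1.33 (adjusted p = 0.0399, where the alternatives ran from 0.00568 to 0.261). In RFP against YFP over both time points it then gave 0.71 (adjusted p = 0.308).

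Notch2 was lower in 2 weeks RFP in each cluster that could be compared. In the cycling-like cluster it was 24.9 and 8.96 CPM in 2 weeks RFP and between 68.0 and 280 CPM in the other 6 libraries. In cluster 2 it was 30.3 CPM in replicate 1 of 2 weeks RFP and between 68.9 and 193 CPM in the other 5 libraries. In the DATP-like cluster it was 40.8 and 15.9 CPM at 2 weeks and 147 CPM in replicate 2 of 4 days RFP. Outside the cycling-like and DATP-like clusters its fold change in 2 weeks RFP against Confetti was -2.79 (adjusted p = 0.0161, where the alternatives ran from 3e-11 to 0.171). Jag1 followed a similar order in the cycling-like cluster, with 42.8 and 7.88 CPM in 2 weeks RFP and 93.6 and 209 CPM in Confetti, but 26.7 CPM in replicate 2 of 4 days YFP. In cluster 2, among whose leading genes are the immediate early genes Atf3 and Fosb, Jag1 ran from 79.7 to 293 CPM and Hes1 from 113 to 321 CPM over 6 libraries. The lowest of both was replicate 1 of 2 weeks RFP, which held more in cluster 9 (99.7 CPM of Jag1 and 200.2 CPM of Hes1).

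**Figure D4:**
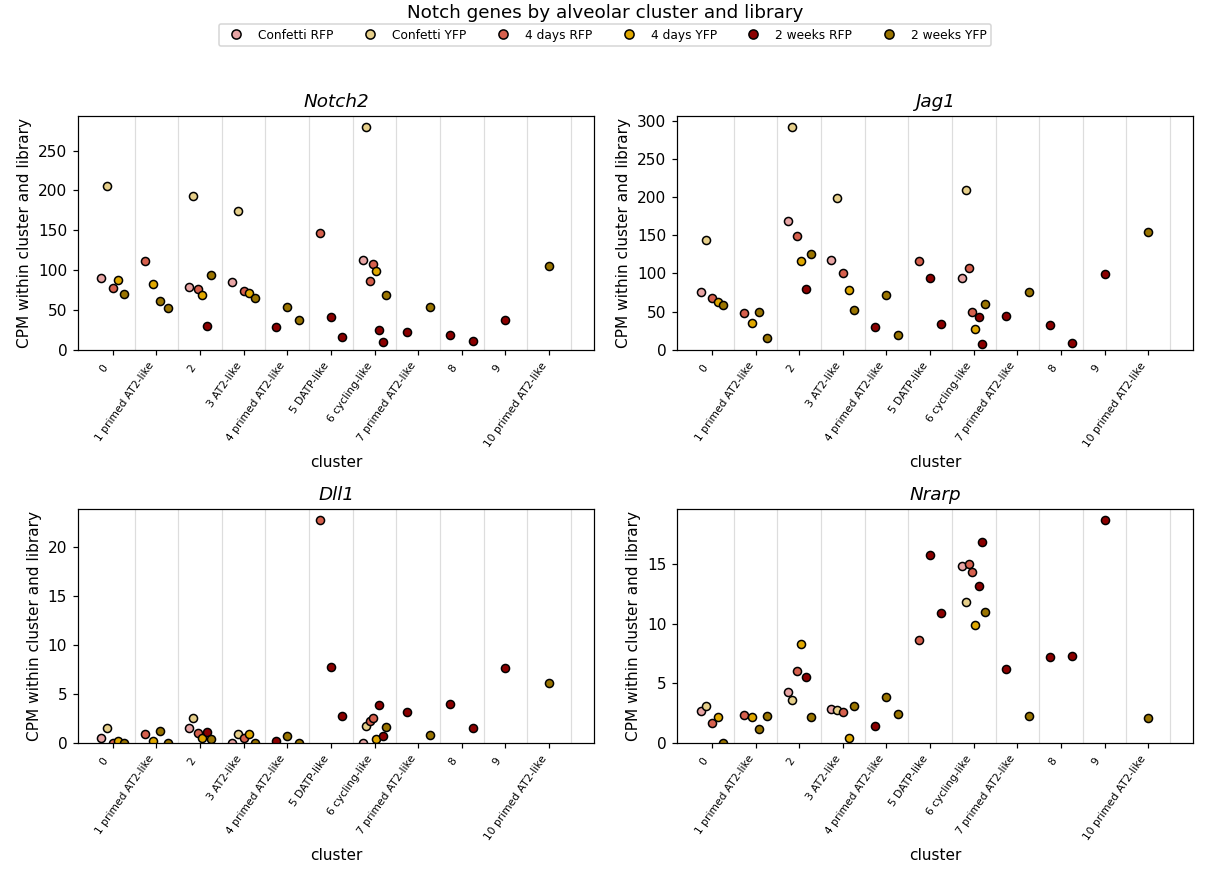
Notch2, Jag1, Dll1 and Nrarp by cluster (CPM of the UMIs of that cluster in that library, libraries with at least 50 cells), coloured by group. Notch2 is lower in 2 weeks RFP within clusters 2, 5 and 6, Dll1 peaks in cluster 5 (22.7 CPM in a 4 days RFP library) and Nrarp is high in cluster 6 in every group.

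The genes most like the 3 members with the highest mean CPM were found over the 10 libraries, by Pearson's r of log2(CPM + 1). For Hes1 these were Adat1 (0.926), Mcmbp (0.924) and Gm21738 (0.886). For Notch2 they were Bmp2k (0.982), Dyrk1a (0.973) and Gigyf1 (0.971), and for Jag1 Map3k20 (0.987), Zbtb21 (0.974) and Zmym2 (0.974). The points are libraries that differ in depth and in cell makeup.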

How the data were processed

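Droplet-based RNA counts of 10 libraries were used. The authors deposited raw UMI counts for each gene and barcode from Cell Ranger, aligned to GRCm38 (version 5.0.1 per the file headers and 3.1.0 in the submitters' processing notes). The labels and the methods name different chemistry versions. Empty droplets had been removed by the authors, with no other filter stated. The members and gene lists were chosen with earlier results of these data known.

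Barcodes with under 1000 genes, over 50000 UMIs or over 15% mitochondrial UMIs were removed, as in the study's methods. Cells were clustered with scanpy 1.11.5 and igraph 0.11.9 (5000 variable genes, 30 components, 20 neighbours, Louvain resolution 0.8), immune, endothelial, mesenchymal and ciliated clusters (2427, 337, 100 and 262 cells) were discarded, and the rest clustered again. Libraries were not integrated. A cluster took the name of its best-scoring marker list if that score (mean standardised expression of the list) was at least 0.25, at least 3 markers were detected in at least 25% of its cells and no other list had more markers among its 10 leading genes, a rule settled after the clusters had been seen. Doublets were kept in the main setting.

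UMIs of alveolar cells were summed per library and tested with edgeR 4.0.16 (R 4.3.3; filterByExpr, TMM, quasi-likelihood F test), with 6 groups as coefficients over 10 libraries, or colour and time over the 8 Red2Kras libraries. Each SE is the fold change over the root of its F value. All 9 members are named, as are listed pathway genes past the threshold or, where none passed, the 2 with the smallest p. Deviations of RFP and YFP samples with the same number correlated at 0.472 at 4 days and 0.627 at 2 weeks (both pairs of a time point give 1 value, since each group has 2 samples), and the sex genes went with the numbers. No source says what the numbers stand for. The 4 pairs over both time points were taken as paired from these correlations, and values under the block are given where a call changes. The main fit has no block. The script was tested on simulated data. Alternatives were RLE scaling, DESeq2 1.42.0, no low-count filter, all cells past the filters, called doublets left out (940 cells), each library left out, a replicate block, and, chosen after seeing the data, cells outside the cycling-like and DATP-like clusters. Thinning drew 2000 UMIs per cell and left out 0 to 6 shallower cells per library. Promoter sequences are from RefSeq (GRCm38.p6), where 7 of 9 members matched by symbol. Intervals and limits cover counting error only.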

Additional observations from a re-analysis of the deposited data

How the results depend on the processing

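Direction was kept in 873 of 895 fold changes, each that of a gene in a comparison under an alternative setting. They cover all members but Hey1 in some comparisons and only Notch2, Jag1, Dll1 and Nrarp in the rest, with the pathway genes named there. Many of them come from the same fit. The number of members called moved more. Over both time points it was 2 with DESeq2, 3 with no low-count filter, 1 with a replicate block and 0 to 2 with one library left out. At 4 days it was 1 with DESeq2 and with no filter and 0 to 1 with one library left out. At 2 weeks between colours it was 1 with DESeq2 and 2 with no filter. For 2 weeks RFP against Confetti it was 3 with DESeq2, 4 with no filter, 0 with all cells past the filters and 0 to 2 with one library left out. For 2 weeks YFP against Confetti it was 1 with no filter, and for RFP cells between time points 1 with DESeq2 and 2 with no filter. Counts over all genes moved with it. For 2 weeks RFP against Confetti 747 genes became 3247 with no filter, 2209 with DESeq2, 1169 outside the cycling-like and DATP-like clusters, 0 with all cells and 1 without either Confetti library. Over both time points 0 became 1300 with DESeq2, 1938 with no filter, 924 with the block and 1460 without replicate 1 of 4 days RFP. The cause was not tested.

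Signs turned for some fold changes, none of them called. With one library left out, Jag1 ran from -0.26 to 0.53 over both time points, from -1.58 to 0.31 at 2 weeks and from -1.02 to 0.46 between time points in YFP cells. Jag2 ran from -0.045 to 0.17 and, at 2 weeks, from -0.19 to 0.32. Hes1 at 2 weeks ran from -0.078 to 0.12, Notch2 at 4 days from -0.17 to 0.46, Dll1 in 2 weeks YFP against Confetti from -1.01 to 0.45 and Dll1 in RFP cells between time points from -1.70 to 1.83. Outside the cycling-like and DATP-like clusters Jag1 over both time points was -0.097 and Dll1 in RFP cells between time points 1.62. With all cells Jag2 over both time points was -0.013, Notch3 against Confetti -1.17, Nrarp in 2 weeks YFP against Confetti -0.28, and Dll1 and Nrarp in YFP cells between time points -1.72 and -0.53. With the replicate block Hes1 at 2 weeks was -4.39e-04. The block changed the calls of Nrarp and Dlk1 over both time points and no other call of the genes named. No block could be fitted against Confetti, which has 1 library per colour. Notch3 and Hey1 were counted with only 96 and 43 UMIs, which limits what can be read from their values.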

Other observations

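Discarded cell types had their own Notch profiles, given here as shares of cells with a UMI at all UMIs. Endothelial cells (337 cells, median 3734 UMIs) stood out with Notch1 in 46.6%, Hey1 in 38.3%, Dll1 in 31.2% and Nrarp in 27.3%. Ciliated cells (262 cells, median 5802 UMIs) had Jag1 in 71.8%, Jag2 in 18.7% and Hey1 in 14.9%, and no Dll1 UMI in any cell, which allows up to 1.15% of cells. Immune cells (2427 cells, median 7089 UMIs) had Notch2 in 47.0% and Hes1 in only 6.47%, and no Notch3 UMI, which allows up to 0.124%. Mesenchymal cells (100 cells, median 3469 UMIs) had Notch3 in 10.0% and no Jag2 UMI. These cells are pooled over libraries, so the shares carry no test.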
